A study of Mus musculus with 12 samples.

Results

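Inflammasome and gasdermin genes form an alarm and pore system that cells use against microbes and damage. Sensors such as Nlrp3, Nlrp6, Nlrc4 and Aim2 gather the adaptor Pycard (also called ASC), on which Casp1 becomes active and cuts the precursors of the cytokines Il1b and Il18. Casp1 and the lipopolysaccharide-binding caspase Casp4 also cut Gsdmd, whose freed end opens pores in the plasma membrane, while the gasdermin C genes are known from the gut epithelium. The 10 genes described are these 4 sensors, Pycard, Casp1, Casp4, Gsdmd, Gsdmc2 and Gsdmc4. They were found by symbol in the deposited tables of normalized counts, which together hold 33944 genes, and all 10 were listed in both tissues.

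Total RNA-seq was carried out on colon and whole blood of 6 mice in a model of ulcerative colitis (UC). All were male C57BL/6 mice aged 8 weeks. According to the labels, the UC mice (numbers 1, 2 and 4) drank 1.5% dextran sulfate sodium (DSS), a polymer that injures the gut epithelium, for 7 days. The mice labelled control (7, 8 and 9) are given as having received none, and all were killed on day 8. This gives 4 labelled groups of 3 libraries: colon and blood under each label. Per the study's methods, the mice were picked from larger groups by their disease activity, and both tissues are mixtures of cells. The total count per library lay between 69181049 and 103662306 in the colon and between 80867247 and 142536804 in the blood.

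The labels were checked before any comparison. One field of the labels gives the tissue and another gives the opposite. The counts followed the first. The epithelial keratin Krt8 had normalized counts of at least 303492 in each library taken as colon and at most 75.3 in each taken as blood, and the summed red cell markers were at most 4014 in the colon and at least 3934646 in the blood. The disease label did not order the inflammatory genes. S100a8, a neutrophil alarm protein, had 5370.44, 33.1 and 22.3 normalized colon counts under the UC label against 1888, 75.6 and 13337 under the control label. Lcn2, an iron-sequestering protein of inflamed epithelium and neutrophils, was also highest in mice 1, 7 and 9, with 1248, 1208 and 9155 normalized counts against at most 117 in the other 3 colon libraries. The 3 highest blood values of both genes were in the same 3 mice. The comparisons below keep the labels and speak of libraries labelled UC and libraries labelled control, and no direction of a labelled difference can be read as an effect of DSS while this conflict stands.

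Some sequences are given beside the values. Casp4 and Nlrp3 are shown because the libraries with the most S100a8 held their 3 highest values in both tissues, as described further on. The stretches lie before the annotated starts of transcription in RefSeq (GRCm38.p6, plus strand), chr9:5308729-5308848 for Casp4 and chr11:59541349-59541468 for Nlrp3, and the capitals mark matches to the kappa B consensus on either strand.
Casp4: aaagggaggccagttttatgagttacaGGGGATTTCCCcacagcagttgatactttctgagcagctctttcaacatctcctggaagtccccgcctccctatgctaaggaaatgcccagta
Nlrp3: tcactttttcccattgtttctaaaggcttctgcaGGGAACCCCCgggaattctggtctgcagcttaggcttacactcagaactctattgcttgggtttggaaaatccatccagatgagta
In Casp4 the capitals are a pair of overlapping matches, the first of which begins 93 bases before the more upstream of its 2 starts. In Nlrp3 the match lies on the opposite strand and begins 186 bases before the more upstream of that gene's 2 starts. The 7 members with a promoter window in the RefSeq table have 9 windows, of which 3 held a match: both of Casp4 and 1 of 2 of Nlrp3. The 2 windows of Casp4 overlap and hold the same site, so that site is counted in both. Of all 32851 windows of the same length, 4.51% held one. These are matches of letters and not evidence of binding, and their part in the values was not tested. Gsdmd, Gsdmc2 and Gsdmc4 have no window in the table, so no match could be sought for Gsdmd, which had the same order.

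The gasdermin C genes are shown because they are near copies, which limits how well their counts can be told apart. The first 90 coding bases (GENCODE vM21, GRCm38, minus strand) lie at chr15:63835854-63835943 for Gsdmc2 and at chr15:63902841-63902930 for Gsdmc4, and capitals mark the 2 bases that differ.
Gsdmc2: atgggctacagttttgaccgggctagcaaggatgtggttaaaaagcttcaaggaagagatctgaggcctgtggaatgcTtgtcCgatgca
Gsdmc4: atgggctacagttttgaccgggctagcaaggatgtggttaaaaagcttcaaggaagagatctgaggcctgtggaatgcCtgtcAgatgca
Over the whole coding sequence, each 1440 bases long, Gsdmc2 and Gsdmc4 shared 94.0% of 1434 aligned bases, and Gsdmc2 and Gsdmc3 shared 97.1% of 1440. Of all stretches of 50 bases in the annotated transcripts, 51.3% of those of Gsdmc2 and 39.0% of those of Gsdmc4 also occurred in a transcript of another gene. For Pycard the share was 11.7%, nearly all of it with Gm45205, a gene on the opposite strand. For the other 7 members it was at most 1.09%.

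Levels differed widely among the members. Compared per kilobase of annotated exon, the colon order by the median of the 6 libraries was Gsdmc4 (46266 normalized counts per kb), Gsdmc2 (17342), Gsdmd (8026), Casp1 (6415), Pycard (2865), Nlrp6 (2532), Nlrc4 (1198), Aim2 (989), Casp4 (703) and Nlrp3 (18.4). Neighbours in this order overlapped over the 6 libraries except at 2 steps, from Casp1 to Pycard and from Casp4 to Nlrp3. In the blood, normalized separately, the order was Gsdmd (510 normalized counts per kb), Casp1 (455), Pycard (213), Aim2 (204), Casp4 (179), Nlrp3 (157), Nlrc4 (68.8), Nlrp6 (30.3), Gsdmc4 (1.80) and Gsdmc2 (0). Blood neighbours were apart at 3 steps, from Casp1 to Pycard, from Nlrc4 to Nlrp6 and from Nlrp6 to Gsdmc4. The most abundant members of the colon, Gsdmc4 and Gsdmc2, were thus the least abundant of the blood.

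**Figure D1:**
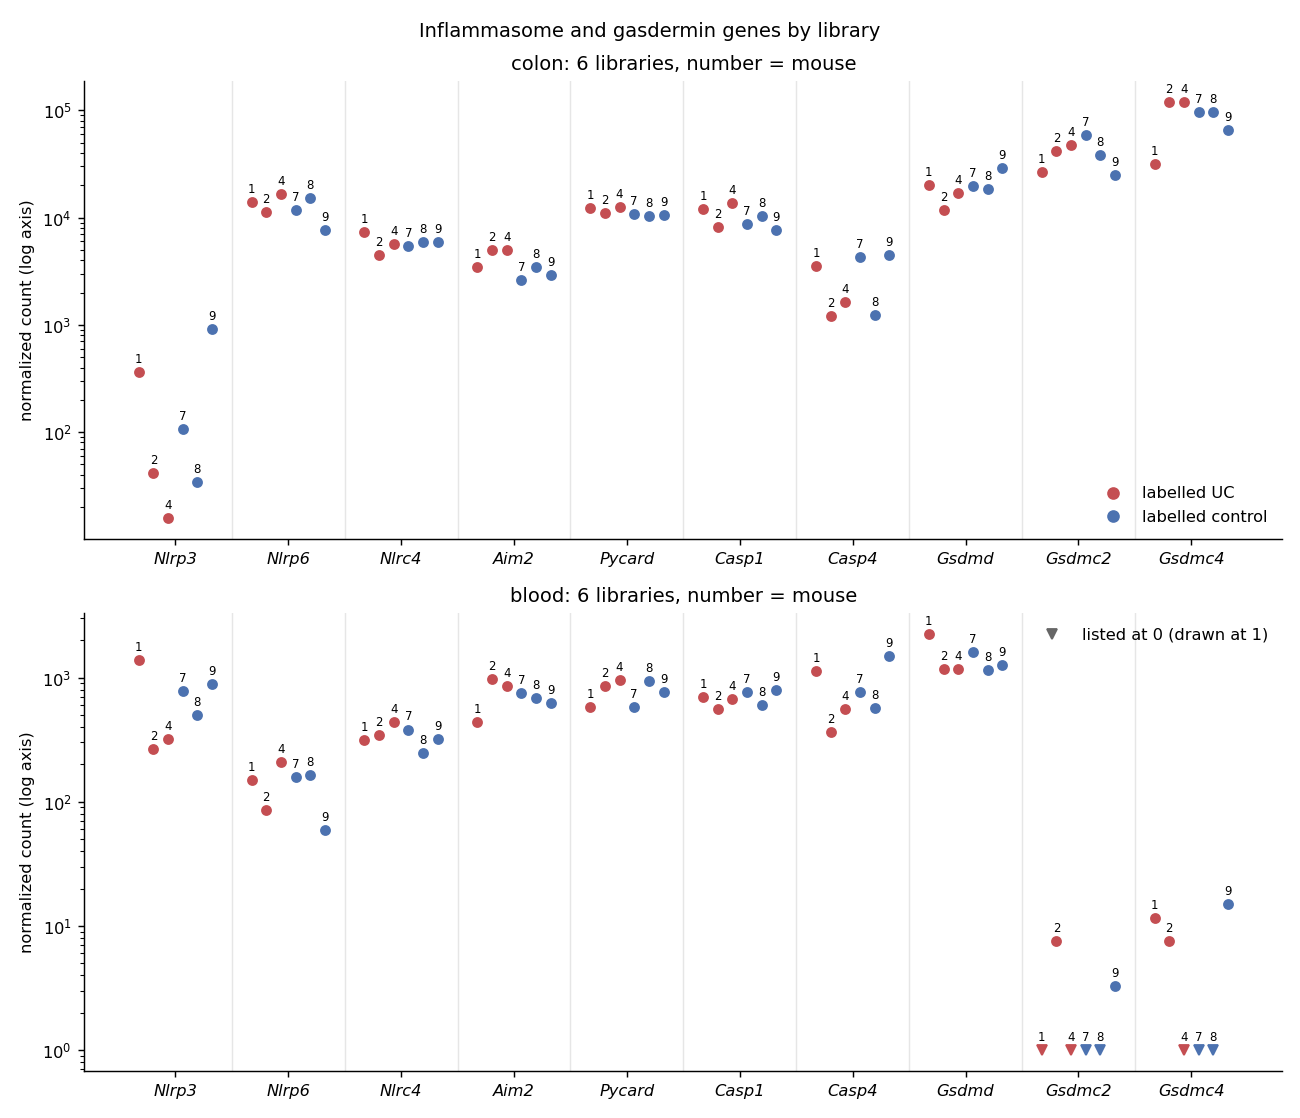
Normalized count (log axis) of each of the 10 genes in every library, colon above and blood below; points are libraries, numbers are mice, colours are disease labels, and triangles are values listed at 0. Colon Nlrp3 spans 15.7 to 921, while colon Pycard stays between 10307 and 12525.

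The first question was whether the members differed between libraries labelled UC and labelled control in the colon. None of the 10 was differentially expressed (edgeR quasi-likelihood test, adjusted p at most 0.05 and absolute log2FC over 1), and each adjusted p was 1.00. Over all 22238 genes tested, 1 was called, 0.0045%. At an unadjusted p under 0.05 there was 1 member, Aim2, against 313 of all genes (1.41%). The median log2FC of the members was 0.02 and that of all genes -0.01. No member was called by DESeq2 or limma-voom either.

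Of the sensors, Nlrp3 (chr11:59541568-59566956), which responds to ion efflux and membrane damage, varied most. Its normalized colon counts were 364, 41.8 and 15.7 under the UC label and 107, 34.0 and 921 under the control label. The highest value was 58.7 times the lowest, both labelled groups spanned low and high values, and mice 9, 1 and 7 were the highest. The log2FC was -1.33 ± 1.49 (SE), and it changed sign to 0.95 without mouse 9. Aim2 (chr1:173350879-173466040), the sensor of DNA in the cytosol, had 3441, 5033 and 4953 normalized counts under the UC label and 2609, 3486 and 2921 under the control label. The labelled groups overlapped by 1 library on each side, with mouse 1 just below mouse 8. The log2FC was 0.56 ± 0.22 (SE), with an unadjusted p of 0.0382 in edgeR and an adjusted p of 1.00.

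Nlrp6 (chr7:140920902-140929192), a sensor known for its expression in intestinal epithelium and goblet cells, had 14072, 11341 and 16734 normalized counts under the UC label and 11661, 15126 and 7629 under the control label. The log2FC was 0.27 ± 0.29 (SE), with mouse 9 the lowest library. Nlrc4 (chr17:74425438-74459142), which answers to flagellin and secretion needle proteins bound by Naip proteins, had 7304, 4446 and 5624 normalized counts under the UC label and 5404, 5931 and 5895 under the control label. Its log2FC was -0.00 ± 0.21 (SE), and the control label lay within the range of the UC label.

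Pycard (chr7:127989708-127993867) was the member with the least spread in the colon. Its normalized counts were 12240.2, 10937 and 12525 under the UC label and 10840, 10307 and 10541 under the control label, so that the labelled groups did not overlap. This held for 1 of 10 members and for 5.59% of the 22123 genes with a mean normalized colon count of at least 10. The log2FC was 0.16 ± 0.14 (SE). Pycard shares exon sequence with Gm45205 on the opposite strand, and a count made without strand cannot tell the pair apart.

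The caspases did not move alike. Casp1 (chr9:5298517-5307265) had 12121, 8257 and 13555 normalized counts under the UC label and 8780, 10427 and 7652 under the control label, with overlapping groups and a log2FC of 0.32 ± 0.24 (SE). Casp4 (chr9:5308828-5336783), its neighbour on the chromosome, had 3569, 1218 and 1644 normalized counts under the UC label and 4297, 1226 and 4500 under the control label. Casp4 thus fell into a high set, mice 1, 7 and 9, and a low set, mice 2, 4 and 8, each holding libraries of both labels. Its log2FC was -0.65 ± 0.59 (SE) and reached -1.23 without mouse 1.

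Among the gasdermins, Gsdmd (chr15:75862327-75867408) had 20299.7, 11800 and 17111 normalized counts under the UC label and 19538, 18620 and 29210 under the control label. Mice 9, 1 and 7 were again the highest, although mouse 8 was close to mouse 7, and the log2FC was -0.46 ± 0.27 (SE). Gsdmc2 (chr15:63824346-63845177) had 26842, 42000 and 47668 normalized counts under the UC label and 59446, 38294 and 24774 under the control label, with a log2FC of -0.09 ± 0.38 (SE). Gsdmc4 (chr15:63891264-63912297) had 31713, 119406 and 120216 normalized counts under the UC label and 95959, 97153 and 65833 under the control label. Mouse 1 had the least Gsdmc4 and mouse 9 the next least, and the log2FC was 0.05 ± 0.51 (SE).

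The gasdermin C genes did not keep 1 proportion across the colon. The Gsdmc4 count was 1.18 times the Gsdmc2 count in mouse 1 and 1.61 times in mouse 7, against 2.52 to 2.84 times in the other 4 colon libraries. The 4 genes of the family, Gsdmc, Gsdmc2, Gsdmc3 and Gsdmc4, together took 0.0783% of all counts in mouse 1 and up to 0.240% in mouse 2. Gsdmc3 contributed between 8.40% and 17.4% of the family's counts, and Gsdmc at most 0.121%. Reads that suit more than 1 of these genes were divided by the quantification, so these shares are less certain than the family's sum.

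**Figure D2:**
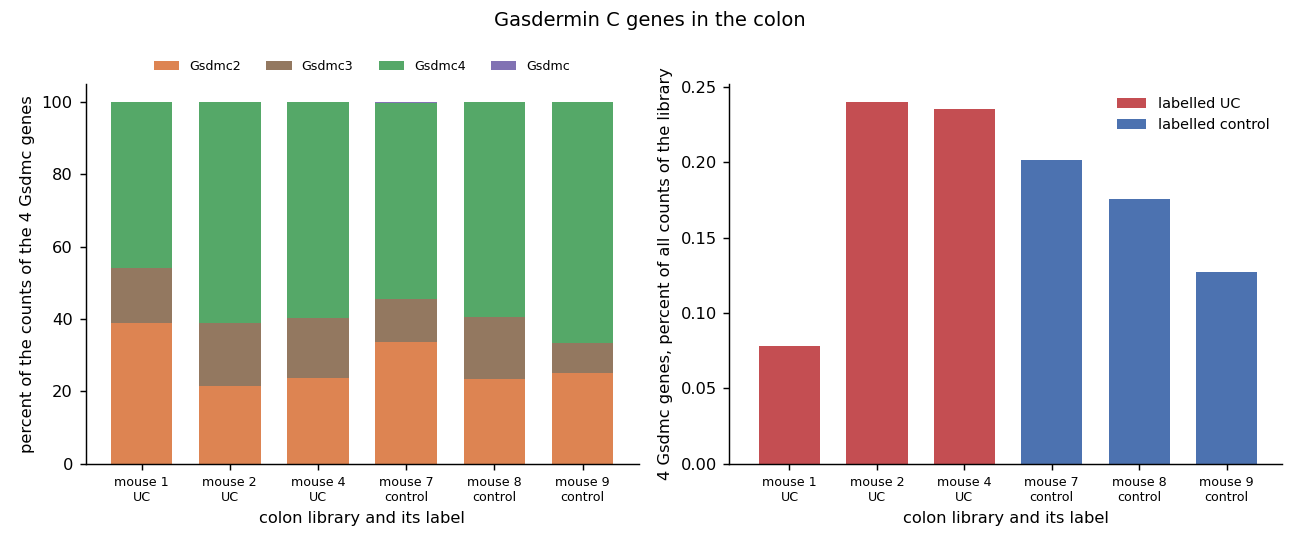
Left, percent of the counts of the 4 gasdermin C genes that each gene took in every colon library; right, their sum as a percent of all counts of the library, coloured by disease label. Mouse 1 has the smallest sum, 0.0783%, and the largest Gsdmc2 share, 38.8%.

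The members were also set against the order of the libraries by S100a8. The libraries of mice 1, 7 and 9, which held the most S100a8, also held the 3 highest normalized colon counts of 3 of the 10 members (Nlrp3, Casp4 and Gsdmd). The same was true of 18.3% of the 22123 colon genes with a mean of at least 10, so the members' share is not far from that of all genes. They held the 3 lowest counts of 2 members, Aim2 and Gsdmc4, against 14.7% of all genes. In the blood, the libraries of mice 1, 7 and 9 held the 3 highest counts of 4 of the 8 members with a mean of at least 10 (Nlrp3, Casp1, Casp4 and Gsdmd), against 11.8% of 16370 genes. They held the 3 lowest of 1 member, Pycard, against 7.29%. Nlrp3, Casp4 and Gsdmd were therefore the members ordered in this way in both tissues, and no test was run on an order taken from the data. The margin of Gsdmd was small. In the colon it had 19538 normalized counts in mouse 7 and 18620 in mouse 8. In the blood it had 1251 in mouse 9 and 1172 in mouse 4. Blood Casp1 was also close, with 693 in mouse 1 and 669 in mouse 4.

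**Figure D3:**
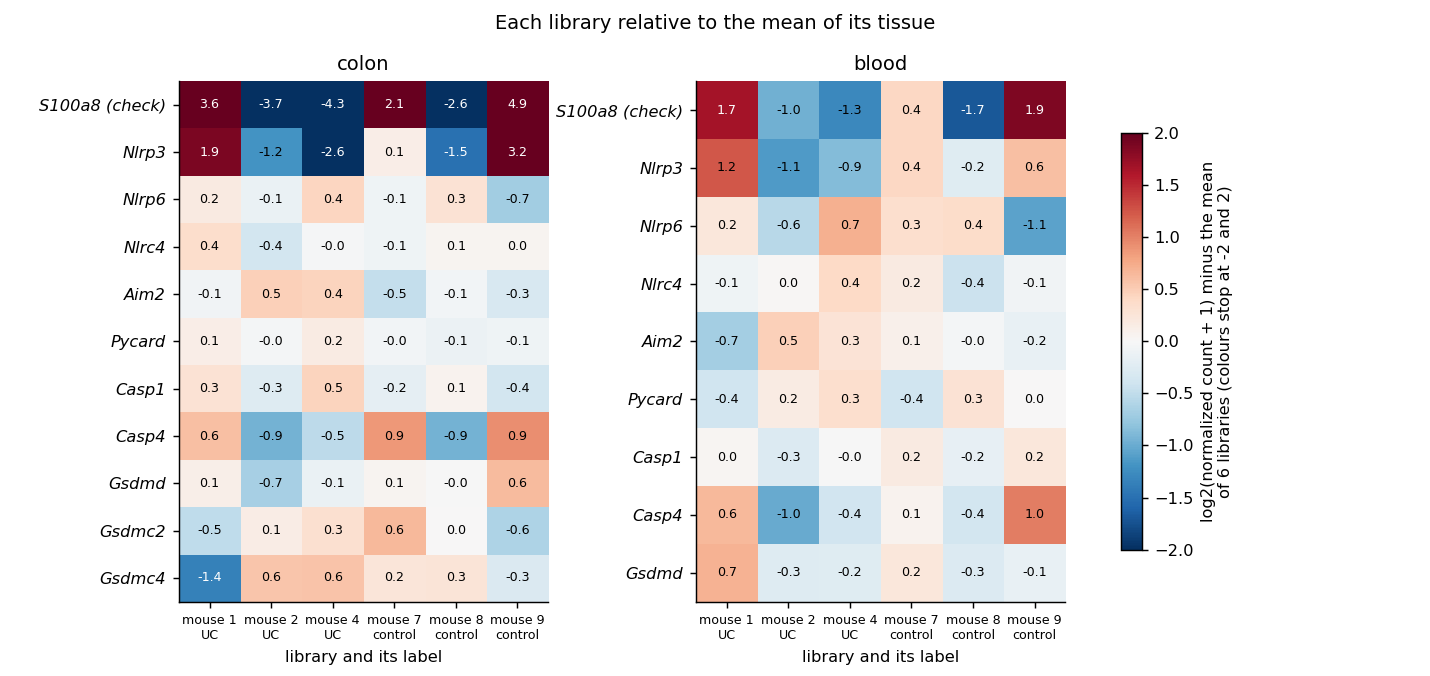
Each cell gives log2(normalized count + 1) of a gene in 1 library minus the mean of the 6 libraries of the tissue, colon left and blood right, with S100a8 in the top row; the 2 gasdermin C genes are left out of the blood. Values of Nlrp3 and Casp4 above the mean fall in mice 1, 7 and 9 in both tissues. Mouse 7 is close to the mean for colon Nlrp3 and for blood Casp4. Pycard in the colon stays within 0.2 of its mean.

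Markers of several cell types were set beside this order. The summed normalized count of 7 neutrophil markers in the colon, S100a8 among them, was 33910, 26119 and 64954 in mice 1, 7 and 9 and 7446, 16494 and 17736 in mice 2, 4 and 8. Some of the markers were listed at 0, Mmp8 in mice 2 and 8 and Cxcr2 in mice 4 and 8. Ly6g alone gave between 7349.97 and 25479 of these counts, at least 16355 in every library but that of mouse 2, whereas Csf3r, the receptor for the neutrophil growth factor, had 720, 559 and 1957 normalized counts in mice 1, 7 and 9 and at most 39.1 in the other 3. Between tissues Ly6g ran against the rest of the list. Its median CPM after TMM scaling was 108 in the colon and 5.17 in the blood. Each other neutrophil marker was lower in every colon library than in every blood library. The colon sum is therefore not a measure of neutrophils alone, and the source of colon Ly6g was not tested. The sum of 7 monocyte and macrophage markers was 16589, 23472 and 31084 in mice 1, 7 and 9 and between 7322 and 9557 in the other 3, with none at 0. The sum of 5 T cell markers in the colon was 749, 1369.5 and 1339 in mice 1, 7 and 9 and between 194 and 300.2 in the other 3, with none at 0. The sum of 3 B cell markers did not follow the order, with 88.1 in mouse 1 of the colon. Nor did the colon sums of 8 epithelial and 4 smooth muscle markers, the latter lowest in mice 9 and 1, at 92293 and 177531. The colon sums of goblet cell, red cell and platelet markers did not follow it either. The low colon sum of 5 squamous epithelial markers did, with 270, 321 and 337 in mice 1, 7 and 9. It lay between 91.6 and 136 in the other 3. Krt5 was at 0 in mice 1 and 2, and Krt6a in mice 4 and 8. In the blood the neutrophil sum was 450915, 152454 and 352142 in mice 1, 7 and 9 and between 39148 and 51898 in the other 3. The monocyte and macrophage sum of the blood was 11549, 7675 and 6523 in mice 1, 7 and 9 and between 4496 and 6443 in the other 3. In those 3 mice C1qb was at 0, as was C1qa in mouse 8. The T cell and B cell sums of the blood did not follow the order, being highest in mouse 2 (4746) and mouse 4 (19256). The part of these cells in the values of Nlrp3, Casp4 and Gsdmd was not tested, and in bulk tissue more cells of a type cannot be told apart from more RNA per cell.

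The genes most like each member were sought among 15842 colon genes with a mean normalized count of at least 100, as the smallest root mean square difference of centred log2 values over the 6 libraries. For Nlrp3 they were Hcar2 (a difference of 0.24), a receptor for hydroxybutyrate and niacin found on neutrophils and macrophages, Lpo (0.54), a secreted peroxidase, and Mmp9 (0.60), a matrix protease of neutrophils. Hcar2 had normalized colon counts of 226, 32.2 and 14.0 in mice 1, 2 and 4 and 86.0, 30.3 and 531 in mice 7, 8 and 9. For Casp4 they were Lyz2 (0.12), the lysozyme of myeloid cells, B2m (0.12), the light chain of MHC class I, and Cd84 (0.12), a leukocyte surface receptor. For Gsdmd they were Nfkbia (0.08), the inhibitor of NF-kappa B, the antisense RNA gene 9530082P21Rik (0.10) and the receptor tyrosine kinase gene Met (0.10).

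Nlrp6 was most like Calml4 (0.03), a calmodulin-like protein of the brush border, Fgd4 (0.04) and Rep15 (0.04). Pycard was most like Snx6 (0.03), Saraf (0.03) and Uqcrfs1 (0.04), Casp1 like Cnbd2 (0.03), Zfp712 (0.04) and Gm9776 (0.04), and Nlrc4 like Primpol (0.06), Hps5 (0.06) and Tha1 (0.08). Aim2 was most like 4921524J17Rik (0.09), Zfp68 (0.09) and Dbt (0.10), Gsdmc2 like Dnajb4 (0.13), Zfp54 (0.14) and Tcf23 (0.17), and Gsdmc4 like Rcan2 (0.23), Zfp783 (0.24) and Igkv10-94 (0.25). A small difference is easier to reach for a gene with little spread, so these values do not rank the members, and no member was among the 3 genes nearest to another.

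In the blood the same question gave no called member. Of the 10, 8 passed the filter on low counts, and Gsdmc2 and Gsdmc4 did not. None of the 8 was called by edgeR, with each adjusted p 1.00, and none of all 16759 genes was, 0%, while 0 members and 241 of all genes (1.44%) had an unadjusted p under 0.05. DESeq2 and limma-voom called no member either. Labels with no overlap were found for 0 of 8 members and for 6.5% of 16370 genes. The log2FC of the 8 members ran from -0.46 ± 0.48 (SE) for Casp4 to 0.21 ± 0.26 (SE) for Nlrc4.

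Nlrp3 was again the most variable blood member, with 1390.01, 266 and 320 normalized counts under the UC label and 780.3, 498 and 892 under the control label. Its log2FC was -0.14 ± 0.60 (SE), and mouse 1 had the highest value. Casp4 had 1134, 361 and 554 normalized counts under the UC label and 766, 565 and 1484 under the control label, with mice 9 and 1 the highest. Gsdmd had 2260, 1165 and 1172 normalized counts under the UC label and 1616, 1144 and 1251 under the control label, mouse 1 standing above the rest, and a log2FC of 0.19 ± 0.31 (SE). The spread of Casp1 was small, 693, 560 and 669 normalized counts under the UC label against 769.5, 604 and 789 under the control label, with a log2FC of -0.17 ± 0.22 (SE).

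The other blood members overlapped between labels in the same way. Pycard had 576, 852 and 961 normalized counts under the UC label and 574, 931 and 766 under the control label, with mice 1 and 7 almost equal and lowest. Aim2 had 438, 977 and 848 under the UC label and 749, 683 and 629 under the control label, the control label lying inside the range of the UC label. Nlrc4 had 316, 343 and 442 under the UC label and 381, 248 and 319 under the control label. Nlrp6 was low throughout, with 149, 85.8 and 207 under the UC label and 159, 163 and 59.6 under the control label. The log2FC was 0.07 ± 0.28 (SE) for Pycard, 0.13 ± 0.31 (SE) for Aim2 and 0.21 ± 0.48 (SE) for Nlrp6.

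Counts of the gasdermin C members in the blood were few. Gsdmc2 had 5 counts in mouse 2, 4 in mouse 9 and 0 in the other 4 libraries, and Gsdmc4 had 11, 5 and 18 counts in mice 1, 2 and 9 and 0 in the other 3. The blood libraries of mice 2 and 9 also had the most Krt8 of the blood, 75.3 and 72.8 normalized counts against at most 9.19 in the other 4. They likewise had the highest sums of 5 goblet cell markers, 298 and 213 normalized counts against at most 5.27, with Tff3 at 0 in mouse 2. Not every epithelial marker followed: blood Epcam, an adhesion protein of epithelium, was 60.2 normalized counts in mouse 2 but lowest in mouse 9, at 9.10 against 27.4 to 60.2 in the rest. Cdh1, another such protein, was highest in mice 7 and 4, at 1.75 and 1.41 CPM after TMM scaling against 0.849 and 1.02 in mice 2 and 9. The part of such RNA in the gasdermin C counts of the blood was not tested.

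An interaction term, fitted over the 12 libraries, tested whether the difference between labels was itself different in colon and blood. None of the 10 members was called by edgeR at an adjusted p of at most 0.05, with each adjusted p 1.00, and 0 had an unadjusted p under 0.05, against 793 of all genes (3.41%). Of all 23258 genes, 1 was called, 0.0043%. DESeq2 and limma-voom called no member, nor did the fit with the mouse as a replicate block.

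Colon and blood themselves differed for most members. CPM values, counts relative to a library total that was scaled by the TMM method over all 12 libraries, were used here, since the normalized tables were made separately. On this scale 7 of 10 members were called higher in the colon, against 37.7% of 23258 genes, and 1 was called higher in the blood, against 20.8%. The same 7 members had all 6 colon libraries above all 6 blood libraries, against 34.3% of all genes, and no member had all 6 below, against 19.2%. The median log2FC of the members, colon minus blood, was 2.16 and that of all genes 0.46. Scaling by library size alone moved the median of all genes to 2.57 and the split of called members from 7 and 1 to 9 and 0, as that of all genes went to 76.9% and 7.55%. Between 39.1% and 67.9% of the counts of a blood library lay in genes outside the blood table. The log2FC relative to the median of all genes is therefore also given for the members whose call depended on the scaling.

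The gasdermin C members had the widest gap between tissues. Gsdmc2 had a lowest, median and highest scaled CPM of 137, 222 and 339 in the colon against 0, 0 and 0.133 in the blood. Gsdmc4 had 176, 546 and 656 in the colon against 0, 0.0664 and 0.270 in the blood. The fitted log2FC was 12.94 ± 0.81 (SE) for Gsdmc2 and 12.23 ± 1.04 (SE) for Gsdmc4. These sizes lean on the few blood counts, and rose to 15.46 without mouse 2 for Gsdmc2 and to 15.56 without mouse 9 for Gsdmc4.

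Among the 4 sensors of the members, Nlrp6 had the largest excess in the colon, with a lowest, median and highest scaled CPM of 42.3, 72.3 and 91.3 against 1.08, 2.81 and 3.76 in the blood, a log2FC of 4.82 ± 0.35 (SE) and an adjusted p of 5.54e-07 in edgeR. Nlrc4 had 24.2, 31.7 and 40.5 in the colon and 4.43, 5.92 and 8.03 in the blood, a log2FC of 2.37 ± 0.18 (SE). The adaptor, Casp1 and Gsdmd had differences of like size. Pycard had 57.7, 60.7 and 68.3 in the colon and 10.5, 14.5 and 17.5 in the blood, a log2FC of 2.15 ± 0.16 (SE). Casp1 had 42.4, 54.2 and 73.9 in the colon and 9.87, 12.4 and 14.4 in the blood, a log2FC of 2.18 ± 0.17 (SE). Gsdmd had 64.4, 108 and 162 in the colon and 20.4, 22.0 and 41.3 in the blood, a log2FC of 2.03 ± 0.24 (SE). All 5 differences were called, with adjusted p values of at most 2.06e-05 in edgeR.

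Nlrp3 went the other way. Its lowest, median and highest scaled CPM were 0.0855, 0.420 and 5.10 in the colon and 4.70, 11.7 and 25.4 in the blood, so that the tissues met only where the highest colon library, mouse 9, passed the lowest blood library. The log2FC was -3.35 ± 0.95 (SE) with an adjusted p of 0.00818 in edgeR, and it was -4.40 without mouse 9. With scaling by library size alone Nlrp3 was no longer called (log2FC -1.16, adjusted p of 0.215 in edgeR), though relative to the median of all genes its log2FC was -3.81 on the TMM scale and -3.73 by library size.

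Aim2 and Casp4 were not called. Aim2 had 14.9, 19.3 and 27.4 in the colon and 8.01, 13.1 and 17.2 in the blood, a log2FC of 0.64 ± 0.20 (SE) whose adjusted p of 0.0134 in edgeR passed and whose size did not. Casp4 had 6.64, 14.4 and 24.9 in the colon and 6.37, 12.2 and 26.9 in the blood, nearly the same range, with a log2FC of 0.03 ± 0.43 (SE). By library size alone both were called, with log2FC of 2.74 and 2.12, and relative to the median of all genes Casp4 was at -0.43 on the TMM scale and -0.45 by library size while Aim2 was at 0.18 and 0.17.

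**Figure D4:**
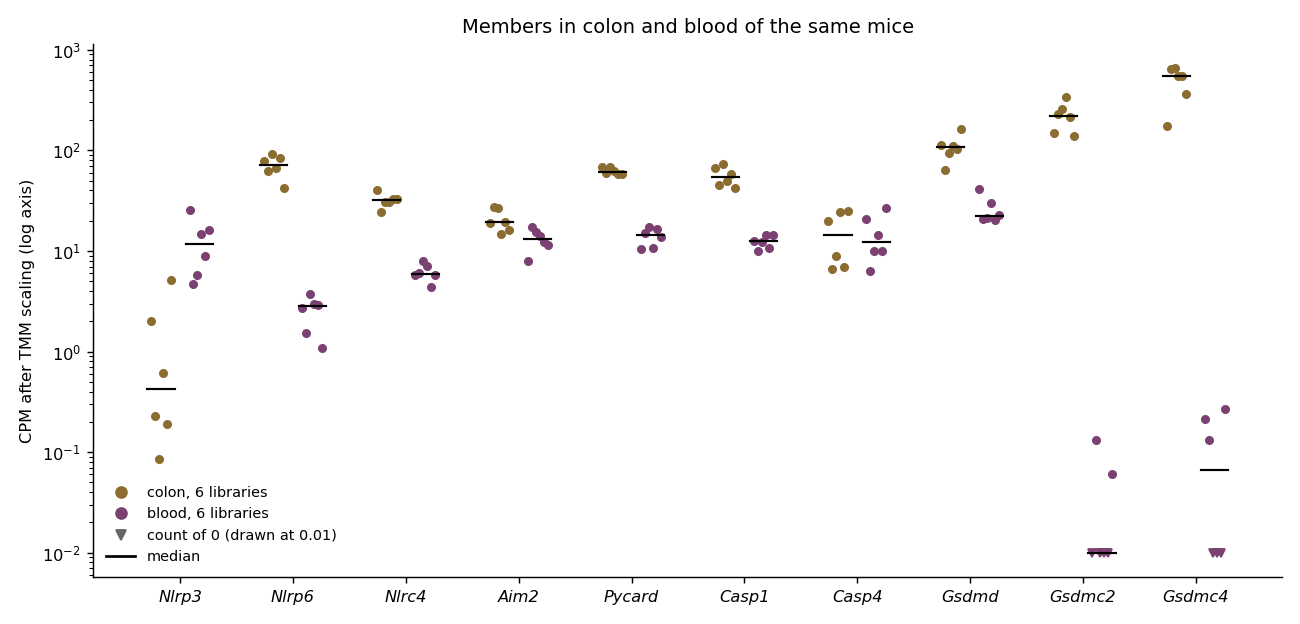
CPM after TMM scaling (log axis) of the 10 genes in the 6 colon and 6 blood libraries of the same mice; points are libraries, bars are medians, and triangles are counts of 0. Only Nlrp3 has its median higher in the blood, 11.7 against 0.420.

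A list of 39 other genes of the pathway, chosen with earlier results of these data known, was examined in the same fits. In the colon 37 were tested and none was called between labels by edgeR, DESeq2 or limma-voom, with 0 at an unadjusted p under 0.05. In the blood 32 were tested and none was called by the same 3 tools, with 1 (Ticam1) at an unadjusted p under 0.05. Il1b, the cytokine precursor that Casp1 cuts, had normalized colon counts of 4138, 125 and 20.6 under the UC label and 1361, 31.5 and 13430 under the control label. Il18, the other such precursor, had 4663, 9937 and 10999 against 3959, 8585 and 12416. The high Il1b libraries were those of mice 9, 1 and 7, as for Nlrp3, while Il18 was highest in mouse 9 and lowest in mice 7 and 1. Gsdme, another pore-forming gasdermin, had 1611, 305 and 305 under the UC label and 1258, 324 and 229.5 under the control label, high in mice 1 and 7 only. For 16 of the 37 list genes with a mean of at least 10 the 3 highest colon values lay in mice 1, 7 and 9, against 18.3% of all genes, and in the blood for 14 of 32, against 11.8%. The 3 lowest values lay there for 6 of 37 in the colon, against 14.7%, and for 1 of 32 in the blood, against 7.29%. Because of how the list was chosen, these shares are not a test of the pathway.

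Between tissues, 17 of 37 tested list genes were called higher in the colon and 9 higher in the blood, against 37.7% and 20.8% of all genes, with a median log2FC of 0.85 against 0.46. By library size alone the split was 27 and 2, against 76.9% and 7.55% of all genes. Of 10 sensors, 7 were called higher in the colon. Among them were Naip1 (log2FC 9.27 ± 0.59, SE), Naip2 (1.93 ± 0.24, SE), Naip5 (1.47 ± 0.18, SE) and Naip6 (3.11 ± 0.18, SE), whose proteins hand bacterial ligands to Nlrc4. The Naip genes are related copies, so counts may be split among them. The 3 sensors called higher in the blood were Nlrp1a (log2FC -4.45 ± 0.64, SE), Nlrp12 (-7.75 ± 1.21, SE) and Mefv (-3.99 ± 0.91, SE), the last of which lost its call by library size alone. Relative to the median of all genes, Mefv was at -4.45 under both scalings.

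Of the other genes, Serpinb1a, an inhibitor of neutrophil proteases and inflammatory caspases, was higher in the colon (log2FC 3.07 ± 0.19, SE). Gsdma (8.29 ± 0.91, SE), Gsdmc (9.36 ± 0.93, SE) and Gsdmc3 (11.22 ± 1.03, SE) were called higher in the colon like Gsdmc2 and Gsdmc4. These sizes, too, lean on few blood counts or none. Gsdmc had 0 counts in every blood library, Gsdma had 3 in mouse 7 alone, and Gsdmc3 had 13 in mouse 2 and 5 in mouse 9. Gsdme was not called (-1.42 ± 0.72, SE, 0.65 by library size alone, and called at -1.36 with the mouse as a replicate block). Ninj1, which ruptures the membrane after gasdermin pores form, was higher in the blood on the TMM scale (-2.10 ± 0.27, SE) and not called by library size alone (-0.03). The channel gene Panx1 was higher in the blood on the TMM scale (-1.18 ± 0.16, SE), and its sign turned by library size alone (0.93). The cytokine genes parted, Il18 being higher in the colon (5.41 ± 0.49, SE) and Il1b in the blood (-3.65 ± 1.33, SE), the latter call being lost by library size alone (-1.53), by DESeq2 (-3.56) and without mouse 2, 4 or 7 (-3.49, -3.42 and -3.28). Relative to the median of all genes, which library size alone moved, Panx1 was at -1.64 under both scalings and Gsdme at -1.88 on the TMM scale and -1.92 by library size. In the same terms Ninj1 was at -2.56 on the TMM scale and -2.60 by library size, and Il1b at -4.11 and -4.09.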

How the data were processed

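The authors sequenced total RNA after removing ribosomal RNA (and globin RNA from blood), mapped reads to GRCm38 with STAR and quantified Ensembl genes with StringTie 1.3.4c, which was not told the strand. The deposited gene counts derive from transcript coverage and are whole numbers. The deposited normalized values (unit: signal) are those counts over a size factor of each library, which the authors set for each tissue separately. Genes outside the normalized table hold 39.1% to 67.9% of the counts of a blood library and 8.63% to 18.7% of a colon library.

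Groups followed the tissue and disease labels. The count table was tested in R 4.3.3 with edgeR 4.0.16 (TMM, filterByExpr, quasi-likelihood test), with Benjamini-Hochberg adjustment over all genes tested, in each tissue alone and over all 12 libraries for the interaction and for colon against blood. The SE is the log2FC divided by the root of the F statistic. Alternatives were RLE and library size scaling, other filters, DESeq2 1.42.0, limma-voom (limma 3.58.1), the adjusted p alone, a fit of all 12 libraries, a replicate block and each mouse left out. Steps were tested on simulated data whose changes were alike in every library of a group. That checks the steps and not the power in these data. P-values measure the spread among 3 mice per group. Those of fits over all 12 libraries treat both libraries of a mouse as independent, except with the replicate block.

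Per the study, a mouse gave both tissues, and titles number the pair alike. Deviations from the labelled group means correlated between same-numbered libraries over 15802 genes with r from 0.00475 to 0.227, above 0.1 in 3 of 6 mice.

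Lengths and positions are from GENCODE vM21, promoter windows (250 bases before to 50 after a start) from RefSeq. The members and lists were chosen with earlier results of these data known. Named genes were all members, the 3 genes most like each, the sensor partners, gasdermins and cytokines of the list given in the text, list genes called between labels, and in the comparison of tissues the 3 list genes with the lowest p in each direction, of which 1 is not reported here. Gm45205, Ticam1, Nlrp12, Mefv, Nek7, Brcc3, Myd88 and single cell type markers were picked once their values had been seen.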

Additional observations from a re-analysis of the deposited data

How the results depend on the processing

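No count of called members or list genes, taken over both directions, moved by over 1.5 times under any alternative. By direction, library size alone moved the list genes higher in the colon from 17 to 27 and those higher in the blood from 9 to 2, and the members higher in the blood from 1 to 0. With mouse as a replicate block, 0 members were called in the interaction, as without it, and 8 members and 27 list genes were called between colon and blood (26 without it). Calls of single members between tissues were kept under every alternative, except that under library size alone Nlrp3 lost its call and Aim2 and Casp4 gained one, and that Aim2 passed with the adjusted p alone. Over all genes, DESeq2 called 6 in the colon, 6 in the blood and 19 in the interaction, where edgeR called 1, 0 and 1, and limma-voom called 0, 0 and 1.

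Among the members, signs turned only for values that were not called. The cause was not tested. In the colon, the log2FC of Nlrc4 was 0.0144 with library size alone, 0.0140 with no filter on low counts and 0.00072 with only the genes of the deposited normalized tables, and that of Gsdmc4 was -0.17 by limma-voom. In the blood, library size alone, which moved the median of all genes from 0.04 to -0.27, gave -0.12 for Nlrc4, -0.12 for Aim2, -0.16 for Pycard and -0.19 for Gsdmd. Between tissues Casp4 was at -0.038 by limma-voom and -0.012 with the replicate block, and library size alone gave 0.65 for Gsdme. It also turned the called values of Panx1 to 0.93, Nek7 to 0.70, Brcc3 to 0.96 and Myd88 to 1.10.

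With each mouse left out, colon log2FC ran from -3.61 to 0.95 for Nlrp3, -0.20 to 0.15 for Nlrc4, -0.36 to 0.29 for Gsdmc2 and -0.20 to 0.46 for Gsdmc4. Blood values ran from -1.29 to 0.24 for Nlrp3, -0.13 to 0.48 for Nlrp6, -0.095 to 0.41 for Aim2, -0.092 to 0.26 for Pycard, -1.02 to 0.034 for Casp4 and -0.19 to 0.35 for Gsdmd. Casp4 between tissues ran from -0.14 to 0.20. With 3 libraries per label and labels at odds with S100a8, a missing call does not show equal levels. Copies among the gasdermin C genes limit how their counts divide.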
